A study of Mus musculus with 4 samples.

Results

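The OAS family was described in mouse dendritic cells that had been held with or without poly I:C in normoxia or hypoxia. Its 8 members are Oas1a, Oas1g, Oas1b, Oas1c, Oas2, Oas3, Oasl1 and Oasl2, taken by gene symbol from a table of 22256 named genes. Each was read by 1 probe set.

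Cells sense foreign RNA in several ways, and one of them is the 2-5A pathway. An active oligoadenylate synthetase (OAS) that binds double-stranded RNA joins ATP into short 2',5'-linked adenylate chains, called 2-5A. These chains act as a second messenger that leads to the breakdown of RNA in the cell, which stops protein synthesis. OAS genes are classical interferon-stimulated genes: interferon acts on them through transcription factors that bind a promoter element called ISRE. The mouse carries many OAS1 paralogs in a row, and some of them have lost the synthetase activity.

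Bone marrow cells of C57Bl/6 mice had been turned into dendritic cells with GM-CSF. For 16 h they then stood in normoxia or hypoxia, each with media alone or with poly I:C, a synthetic mimic of viral double-stranded RNA (10 µg/ml), which makes 4 groups. The labels give hypoxia as 0.5% and do not name the gas. A single Affymetrix Mouse Gene ST 1.0 array measured the RNA of each group, so no difference here has a replicate error or a p-value, and precision is limited by how few arrays there are. All 4 samples are labelled as total RNA, but the labels' protocol speaks of nascent RNA as well, so which RNA was read is not settled. Whether animals were pooled is not given in the sources used here. Levels are RMA intensities on a linear scale, the authors' normalized signals, and differences are log2 differences between 2 arrays, counted from 2-fold upwards. The array medians lay between 3.90 and 4.09. The floor was an intensity of 64, and the 2720 genes that reached it on any array are called above the floor.

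Markers of the labelled cell type were checked first. The floor was passed by 6 of 9 markers of dendritic cells, with the class II gene H2-Aa at 902 to 1395, but Flt3 and Zbtb46 stayed below 7 on every array. All 7 macrophage markers were above the floor, and no B cell, T cell or natural killer cell marker was. The macrophage list summed to 5670 and 5498 in media, in normoxia and hypoxia, and to 5113 and 5343 with poly I:C, while single genes moved apart. Mrc1, the mannose receptor gene, read 131.5 and 11.5 in normoxia and 50.1 and 4.81 in hypoxia, with media and with poly I:C. Fcgr1, an Fc receptor gene, differed by 3.90 and 4.95 with poly I:C. In hypoxic media Mrc1 was at -1.39, Fcgr1 at -1.08 and Adgre1 at -0.93, the direction of most OAS members there, and the median of the 7 was -0.11. The neutrophil list summed to 462 and 602 in media, in normoxia and hypoxia, and to 134.0 and 117.0 with poly I:C, nearly all from Mmp8, while Ly6g, S100a8, S100a9, Camp, Ngp and Elane stayed below 7. The plasmacytoid list summed to 56.8 and 52.4 in media and to 574 and 645 with poly I:C, carried by Bst2, itself an interferon-induced gene, with Siglech below 4 on every array. Their part in the differences given next was not tested. In such bulk RNA, fewer cells of a type and less RNA per cell cannot be told apart.

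The promoters come first, because several members share the same short stretch. The RefSeq table (build GRCm38.p6) holds windows of 250 bases before to 50 bases after the annotated start for 6 of the 8 members, Oas1a, Oas1g, Oas1c, Oas3, Oasl1 and Oasl2. It also holds windows for 2 paralogs outside the list, Oas1f and Oas1h. Each window was searched on both strands for the ISRE core GAAANNGAAA. The core matched in 4 of the 6 member windows and in neither Oas1f nor Oas1h, against 3.44% of all 32851 windows in the table. GAS, another interferon-linked promoter element, searched as TTCNNNGAA, matched only in the Oas1a window among these 8, against 8.30% of all windows. A match describes letters and is not a shown binding site.

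The following 4 windows, all from chromosome 5 of GRCm38.p6 and written along the gene's own direction, are shown because each holds the ISRE core. Capitals mark the matches, and 2 overlapping matches make 1 run of capitals in the first 3 windows. All 4 genes lie on the minus strand.
Oas1a, chr5:120907476-120907775: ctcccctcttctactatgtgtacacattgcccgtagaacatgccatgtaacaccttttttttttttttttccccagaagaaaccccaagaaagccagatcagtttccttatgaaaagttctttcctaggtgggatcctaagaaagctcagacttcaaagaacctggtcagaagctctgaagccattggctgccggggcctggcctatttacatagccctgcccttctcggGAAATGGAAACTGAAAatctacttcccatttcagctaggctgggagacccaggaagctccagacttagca
Oas1g, chr5:120887564-120887863: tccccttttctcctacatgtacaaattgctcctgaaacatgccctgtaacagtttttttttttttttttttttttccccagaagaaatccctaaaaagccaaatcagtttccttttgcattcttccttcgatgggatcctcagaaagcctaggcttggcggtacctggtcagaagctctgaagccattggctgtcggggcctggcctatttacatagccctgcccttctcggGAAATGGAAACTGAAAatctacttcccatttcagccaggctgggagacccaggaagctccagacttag
Oas1c, chr5:120812465-120812764: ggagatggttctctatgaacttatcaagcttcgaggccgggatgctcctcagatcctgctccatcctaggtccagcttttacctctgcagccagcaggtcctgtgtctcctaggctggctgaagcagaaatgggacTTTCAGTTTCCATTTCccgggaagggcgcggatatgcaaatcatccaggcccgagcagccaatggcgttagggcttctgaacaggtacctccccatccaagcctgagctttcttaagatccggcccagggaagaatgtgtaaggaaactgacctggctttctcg
Oas3, chr5:120777610-120777909: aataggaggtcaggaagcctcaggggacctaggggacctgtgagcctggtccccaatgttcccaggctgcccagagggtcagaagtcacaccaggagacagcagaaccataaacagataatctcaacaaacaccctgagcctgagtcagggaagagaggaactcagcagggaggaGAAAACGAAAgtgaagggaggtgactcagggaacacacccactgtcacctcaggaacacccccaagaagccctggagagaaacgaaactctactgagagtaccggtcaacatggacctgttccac

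Oas1a and Oas1g carry the identical run of 16 bases, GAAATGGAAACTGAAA, just before their starts, from base -20 to -5 in Oas1a and from -18 to -3 in Oas1g. Their whole windows aligned with 85.3% identity, so the shared run sits in a shared stretch. Oas1c carries the same 16 bases on the opposite strand, from -114 to -99. Aligned along each gene's own direction, its window was 44.9% identical to that of Oas1a. That alignment does not bring the copies of the run together, so whether this run too sits in a shared stretch was not tested. The Oas1c window reaches 130 bases into the neighbouring Oas1b gene, and the run lies 6 bases outside the annotated edge of Oas1b. Oas1b has no window of its own here, so whether the run belongs to Oas1c or to Oas1b was not tested. Of the 32851 windows 7 hold this run, which is 0.0213%. The run was read out of the Oas1a, Oas1g and Oas1c windows, and these 3 are among the 7. Its rarity is therefore not an independent background for them. In Oas3 the match is a single core from -75 to -66. No match was found in the Oasl1 and Oasl2 windows, which says only that these letters are not in them.

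**Figure D1:**
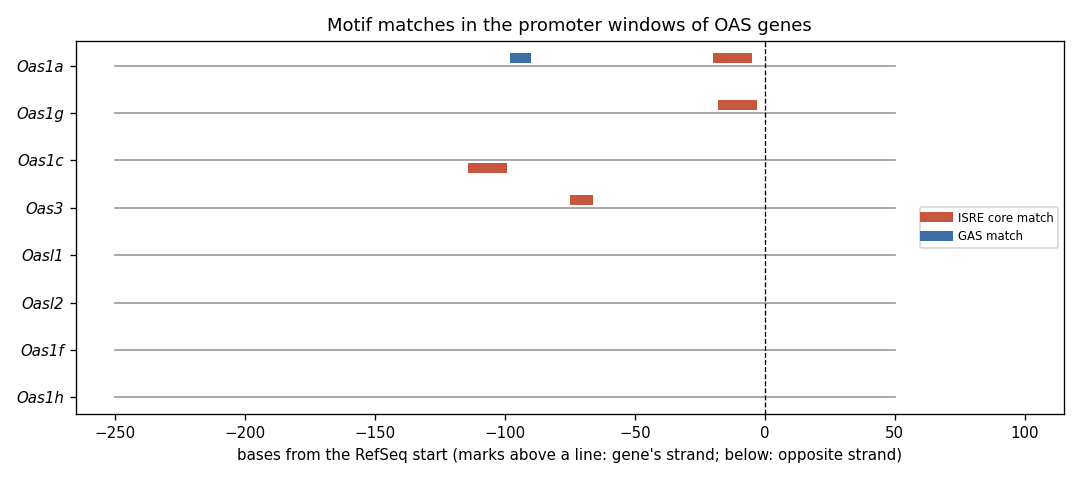
Positions of ISRE core and GAS matches in the promoter windows of 6 OAS family members and of the paralogs Oas1f and Oas1h, in bases from the RefSeq start. Marks above a line are on the gene's strand and marks below it on the opposite strand. Oas1a and Oas1g have the ISRE core next to the start, Oas1c has it on the opposite strand, and Oas3 has 1 match at -75 to -66.

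Every member read higher with poly I:C than with media at both oxygen levels. The lowest value of each gene with poly I:C lay above its highest value in media, an order that was not counted over all genes. In normoxia all 8 members were at least 2-fold higher, where 14.9% of genes above the floor and 2.90% of all named genes were. In hypoxia again all 8 were, against 16.5% above the floor and 3.47% of all named genes. The median over the 8 members was 2.60 in normoxia and 4.07 in hypoxia, and over all named genes 0.02 and -0.0029. Of the 8 members 7 passed the floor, but in media only Oasl2 did so, in normoxia. The others passed through the poly I:C arrays, a route that favours higher values there.

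**Figure D2:**
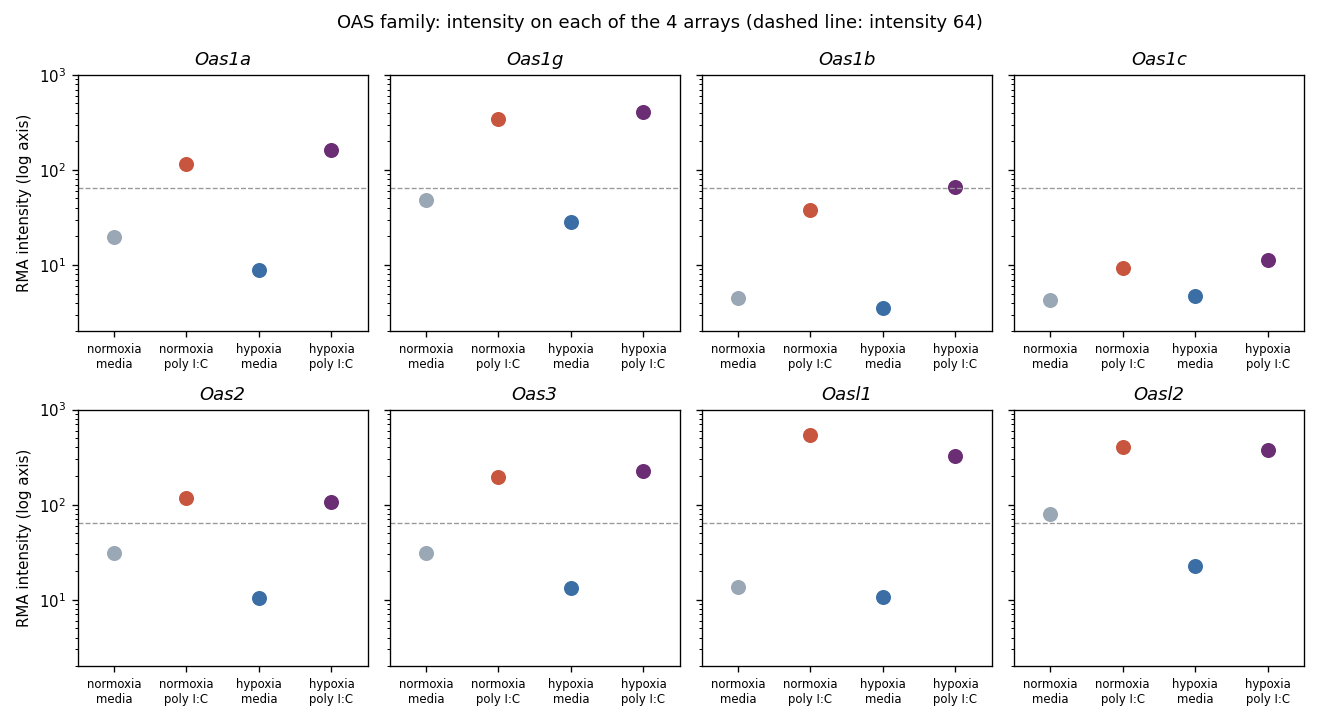
RMA intensity (log axis) of the 8 OAS family members on the 4 arrays, 1 point per array and no replicates. In every panel both poly I:C points lie above both media points, and in 7 of 8 panels the hypoxia media point is the lowest. How often all genes show these orders was not counted. Levels of different panels are not comparable, because each gene has its own probes.

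Oas1a, one of the enzymatically active OAS1 proteins of the mouse, read 19.7 in normoxia with media and 115.8 with poly I:C, and 8.92 in hypoxia with media and 161.1 with poly I:C. The array with both treatments was the highest and hypoxic media the lowest. That is 5.87-fold with poly I:C in normoxia (2.55) and 18.1-fold in hypoxia (4.17).

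Oas1g, the other active OAS1 enzyme considered here and the neighbour of Oas1a on chromosome 5, read 48.6 and 346 in normoxia and 28.0 and 409.5 in hypoxia, with media and with poly I:C. Its order of conditions was that of Oas1a. The differences for poly I:C were 2.83 in normoxia and 3.87 in hypoxia. Near-identical sequence could let probes of 1 OAS1 paralog read another, and this was not tested. The cross-hybridisation flag in the authors' deposited table is FALSE for all 8 members. It is TRUE for only 27 of the 28998 probe sets, so FALSE is the usual value and does not settle the point.

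Oas1b is the flavivirus resistance gene of the mouse, and C57BL/6 mice carry a truncated form. RefSeq lists it as a transcribed pseudogene. It read 4.45 in normoxia with media, close to the array median, 38.3 with poly I:C, 3.50 in hypoxia with media and 65.6 with poly I:C. Both media values were dim, so its differences of 3.10 and 4.23 rest on signal near background. It passed the floor on 1 array, hypoxia with poly I:C, by a narrow margin.

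Oas1c, a further OAS1 paralog, was dim throughout, at 4.23 and 9.33 in normoxia and 4.69 and 11.3 in hypoxia, with media and with poly I:C. It never reached the floor. Its poly I:C differences, 1.14 and 1.27, were the smallest of the family, and with 16 added to each intensity they were 0.32 and 0.40.

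Oas2 makes a larger synthetase, built from a pair of OAS units. It read 31.1 in normoxia with media and 118.0 with poly I:C, and 10.5 and 107.9 in hypoxia. The poly I:C arrays were close to each other and far above both media arrays. The difference for poly I:C was 1.92 in normoxia and 3.36 in hypoxia.

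Oas3, the largest synthetase of the family, built from more OAS units than Oas2, read 30.9 and 194.6 in normoxia and 13.2 and 225.2 in hypoxia, with media and with poly I:C. Its 4 values follow the same order as those of Oas1a. The differences for poly I:C were 2.65 and 4.09.

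Oasl1 has ubiquitin-like domains and no synthetase activity, and in the mouse it holds back translation of Irf7 mRNA. It read 13.5 in normoxia with media, 546.7 with poly I:C, 10.8 in hypoxia with media and 325.4 with poly I:C. Unlike in the OAS1 genes and Oas3, the normoxic poly I:C array was the highest. Poly I:C made a 40.4-fold difference in normoxia (5.34), rank 14 from the top among 2720 genes, and a 30.1-fold difference in hypoxia (4.91), rank 39. Both media values lay well below the floor, which Oasl1 passed through its poly I:C arrays. With 16 added to each intensity the differences were 4.25 and 3.67, still the highest of the family.

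Oasl2, which also has ubiquitin-like domains but keeps synthetase activity in the mouse, was the only member above the floor in media. It read 79.5 in normoxia with media, 407.8 with poly I:C, 22.4 in hypoxia with media and 371 with poly I:C. The poly I:C arrays were again close and the media arrays apart. Poly I:C differences were 2.36 in normoxia and 4.05 in hypoxia.

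Hypoxia without stimulation went with lower readings. Of the 8 members 4 were at least 2-fold lower in hypoxic than in normoxic media, and none was 2-fold higher. Among genes above the floor 6.76% were 2-fold lower, and among all named genes 2.22%. Oasl2 was 3.55-fold lower (-1.83), rank 34 from the bottom of 2720 genes, followed by Oas2, 2.97-fold lower (-1.57, rank 60), Oas3 (-1.23, rank 118) and Oas1a (-1.14, rank 136). Oas1g was at -0.80, Oas1b at -0.35, Oasl1 at -0.32 and Oas1c at 0.15. The median over the 8 members was -0.97 and over all named genes 0.02. Of the 4 members past 2-fold, only Oasl2 had an intensity above the floor on either media array, and with 16 added to each intensity Oasl2 alone stayed past 2-fold (-1.31), with Oas2 at -0.83, Oas3 at -0.68 and Oas1a at -0.52. Centring on the reference genes left 3, with Oas1a at -0.98.

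With poly I:C the hypoxic and normoxic arrays were within 2-fold of each other, as for most genes above the floor. None of the 8 members was 2-fold apart in either direction, where 7.68% of genes above the floor were. With so low a share, such a count is not particular to the family. Oas1b was highest at 0.78, then Oas1a at 0.48, Oas1c at 0.28, Oas1g at 0.24 and Oas3 at 0.21. Oas2 was at -0.13, Oasl2 at -0.13 and Oasl1 at -0.75. Most of these values are small: those of Oas1c, Oas1g, Oas3, Oas2 and Oasl2 lie within 0.32, which is the robust SD of the difference of differences, 0.45, over the square root of 2, so their signs are not read.

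**Figure D3:**
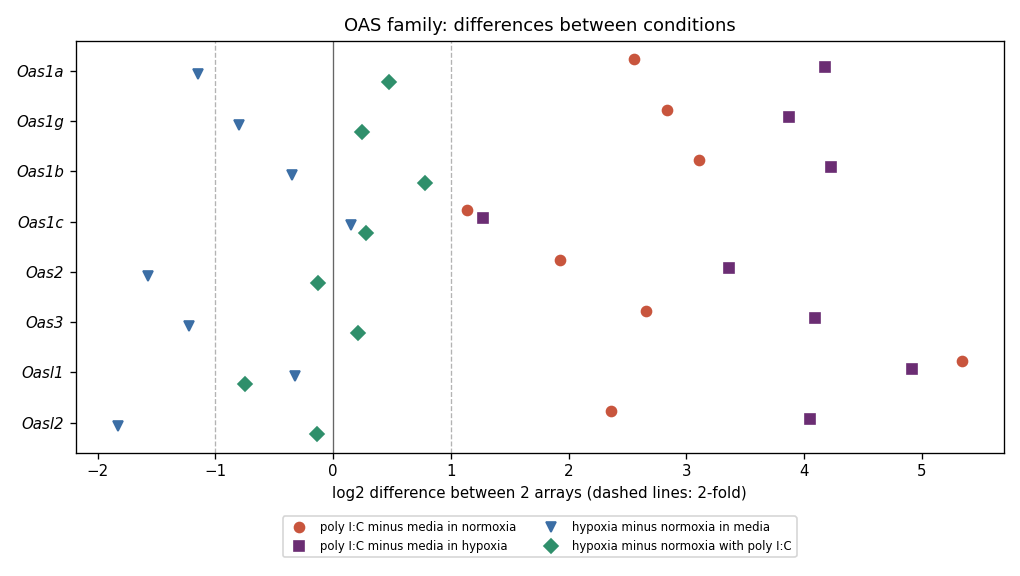
Log2 differences of the 8 OAS family members for 4 comparisons, each between 2 arrays, with dashed lines at 2-fold. The poly I:C differences lie to the right of the 2-fold line for all 8 members, and are larger in hypoxia than in normoxia for all but Oasl1, with Oas1c also an exception after centring on the reference genes (-0.15). The hypoxia differences in media reach -1.83 for Oasl2, and those with poly I:C stay within 2-fold.

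The poly I:C difference was therefore larger in hypoxia than in normoxia for 7 of 8 members. After centring on the reference genes this held for 6, with Oas1c turned to -0.15. Over genes above the floor the median of this change was 0.02 as deposited, so a value above 0 was common there. The hypoxia difference was below 0 in media and above 0 with poly I:C in 4 members, Oas1a, Oas1b, Oas1g and Oas3. Opposite signs were found in 30.4% of genes above the floor. The poly I:C values of Oas1g (0.24) and Oas3 (0.21) lie within 0.32, so their signs are not read. The media value of Oas1b rests on intensities of 4.45 and 3.50, near the array median. The difference of differences, which uses all 4 arrays, was 1.69 for Oasl2, 1.62 for Oas1a, 1.44 for Oas2 and for Oas3, 1.12 for Oas1b and 1.04 for Oas1g. It was 0.13 for Oas1c and -0.43 for Oasl1, both within the robust SD of 0.45 given below. Thus 6 of the 8 were at 1 or more, where 5.92% of genes above the floor were. For Oas2 and Oasl2 the value is made up almost wholly of the media arrays, which differed by -1.57 and -1.83, while the poly I:C arrays differed by -0.13 in both. For Oas1b the poly I:C arrays contributed more (0.78) than the media arrays (-0.35). With 16 added to each intensity 1 of 8 was at 1 or more, Oasl2. Centring on the median gene left 5 (Oas1g at 0.97), and centring on 8 reference genes left 4 (Oas1g at 0.76, Oas1b at 0.84). Over genes above the floor the difference of differences had a robust SD of 0.45, which contains any real response to the combination.

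**Figure D4:**
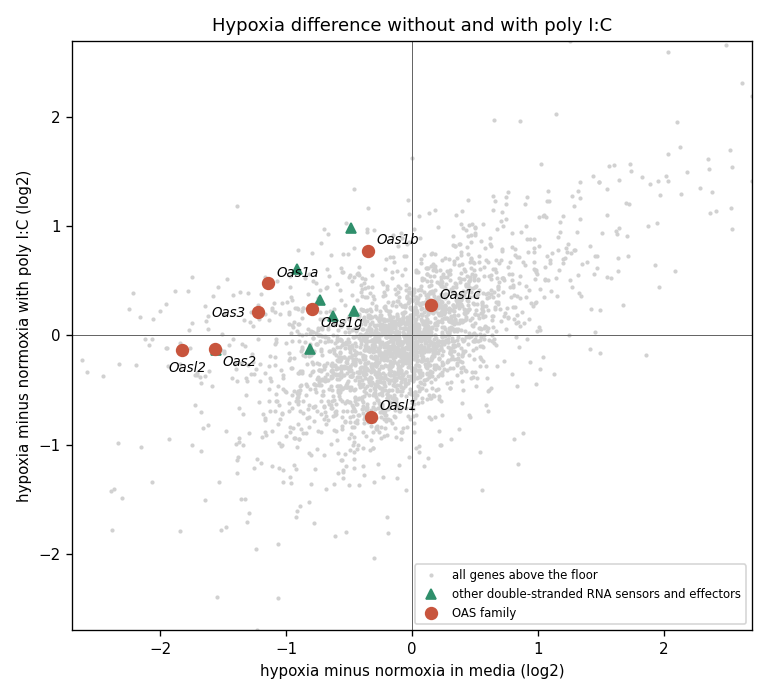
Hypoxia minus normoxia (log2) in media against the same with poly I:C, for genes above the floor (grey), OAS family members (circles) and 7 other double-stranded RNA sensors and effectors (triangles). A total of 27 of the 2720 genes lie outside the axes, and the triangle of Ddx58 is hidden behind Oas2. Most members lie left of 0 on the media axis and near 0 on the poly I:C axis, with Oasl1 the furthest below.

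Against untreated cells, the combination of hypoxia and poly I:C read higher in all 8 members by 2-fold or more, against 18.9% of genes above the floor. The differences ran from 1.42 for Oas1c and 1.79 for Oas2 to 3.88 for Oas1b and 4.59 for Oasl1. This comparison shares each of its arrays with other comparisons given here.

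The remaining OAS1 paralogs stayed dim in every condition. Oas1d, known from the ovary, Oas1e, Oas1f and Oas1h lie in the same row of genes on chromosome 5, between the members or next to them. Their 16 readings lay between 1.49 and 3.55, below the array medians, and no difference between conditions reached 2-fold. The windows of Oas1f and Oas1h were 73.4% identical to each other and 47.0% and 46.8% identical to that of Oas1a.

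The partners of the 2-5A pathway that were examined did not follow the synthetases. Abce1, which encodes an ATP-binding protein of the 2-5A pathway that also recycles ribosomes, read 96.7, 53.6, 56.5 and 16.3 in normoxic media, normoxic poly I:C, hypoxic media and hypoxic poly I:C. Each treatment went with a lower reading, and the combination with the lowest, 5.94-fold below untreated cells (-2.57). Poly I:C made a difference of -0.85 in normoxia and -1.79 in hypoxia, and hypoxia one of -0.78 in media and -1.72 with poly I:C. The hypoxic poly I:C value was well under the floor, and with 16 added the combination was at -1.80.

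The enzymes that degrade 2-5A were dim. Pde12, a 2',5'-phosphodiesterase described in human cells, read between 4.86 and 6.41. Akap7, whose mouse product can also cut 2-5A, read 11.5, 11.5, 32.1 and 14.8 in the same order as Abce1, so hypoxic media stood out (1.48 above normoxic media) below the floor.

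**Figure D5:**
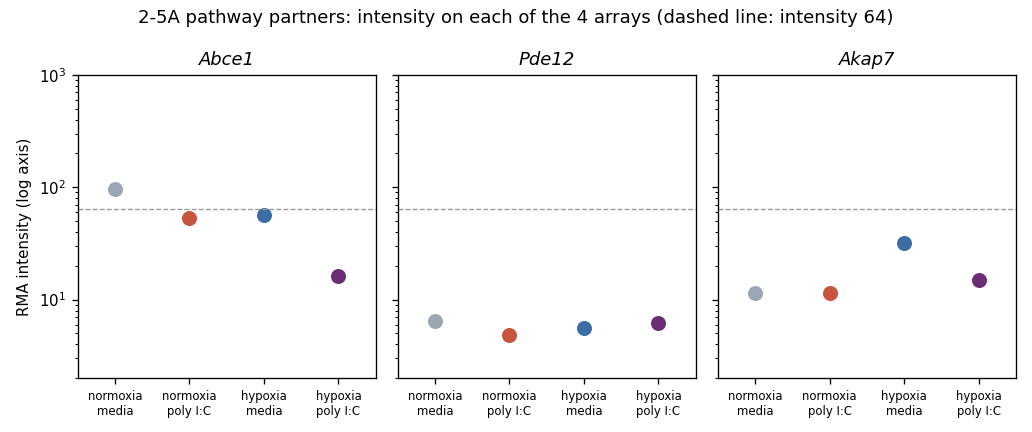
RMA intensity (log axis) of 3 partners of the 2-5A pathway on the 4 arrays, 1 point per array. Abce1 is lowest in hypoxia with poly I:C, and Pde12 and Akap7 stay below the floor of 64 on every array.

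Other double-stranded RNA sensors and effectors were also higher with poly I:C. All 7 in the list, Eif2ak2, Ifih1, Ddx58, Dhx58, Tlr3, Zbp1 and Adar, were at least 2-fold higher with poly I:C at both oxygen levels. Among genes above the floor 14.9% were in normoxia and 16.5% in hypoxia. The medians of the list were 2.10 in normoxia and 3.24 in hypoxia. Tlr3 never reached the floor. In hypoxic media all 7 read lower than in normoxic media, with a median of -0.73. The median of all genes above the floor was -0.10 there, so a value below 0 was common, and that of all named genes was 0.02. Ddx58, the RIG-I gene, alone passed 2-fold (-1.56), where 6.76% of genes above the floor were 2-fold lower. In the difference of differences 4 of the 7 were at 1 or more, with a median of 1.05, where 5.92% of genes above the floor were. The larger poly I:C difference in hypoxia is thus not particular to the OAS family. Eif2ak2, which encodes the RNA-activated kinase PKR, read 33.6, 95.1, 17.8 and 145.2 over the 4 conditions in the order used for Abce1, with the array of both treatments highest, as for Oas1a. The related DNA sensor gene Cgas stayed below 4, and its adaptor gene Sting1 was at 0.12 and 0.28 for poly I:C.

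Components of the interferon signal differed in part. For poly I:C the difference of Irf7 was 5.14 in normoxia and 5.94 in hypoxia, that of Stat2 2.49 and 3.40, and that of Irf1 1.83 and 3.21. Irf9 passed 2-fold in hypoxia (1.15) but not in normoxia (0.84). Ifnar1, Ifnar2 and Jak1 stayed within 2-fold in both. Thus 3 of the 8 genes examined were 2-fold higher in normoxia and 5 in hypoxia, Tyk2 among the latter (1.95), where 14.9% and 16.5% of genes above the floor were. In hypoxic media none of the 8 was 2-fold apart, and Stat2 was furthest down at -0.90. The 13 type I and III interferon genes in the table stayed below the floor on all 4 arrays, the brightest value being 17.4 for Ifnl2 in hypoxia with poly I:C. Ifnl2 and Ifnl3 are near-identical and may not be read apart.

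Genes with the most similar profile were found by Euclidean distance over the 4 log2 values, each gene centred on its own mean. Nearest to the median profile of the 7 members above the floor were Ifitm3 (0.21), Slfn9 (0.34), Tmem171 (0.34), Ifi204 (0.35) and Gbp2 (0.40). Ifitm3, an antiviral membrane protein gene, read 243, 1550, 123.2 and 1669 in the order used for Abce1. Among single members, Ifitm3 was nearest to Oas1a, Oas1g and Oas3, AW112010 to Oas1b, Ddx58 to Oas2 (0.09), the chemokine gene Cxcl9 to Oasl1 and the complement factor gene Cfb to Oasl2. Within the family, Oas1a and Oas3 were closest (0.20), then Oas1a and Oas1g (0.30), and Oasl1 stood 1.81 or more from every other member above the floor. With 4 points and arrays shared by all genes, these distances describe likeness on these arrays only.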

How the data were processed

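The authors hybridised RNA of 4 conditions to 1 Affymetrix Mouse Gene ST 1.0 array each, labelled as total RNA, although the labels' protocol mentions nascent RNA too. The deposited intensity values were normalized by RMA, with Affymetrix Expression Console, per the submitters' processing notes and the labels. The sources used here name neither versions nor the annotation build. The 2 deposited tables hold the same linear intensity values for 28998 probe sets (0 differ).

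Probe sets were named through RefSeq accessions, symbols or unambiguous synonyms (GRCm38.p6, names only), giving 22256 genes by the brightest probe set of each. All 8 members matched by accession. Values were taken to log2, since the deposited ones are linear while log2 values had been planned for. Each reported difference is between 2 arrays, with no test. The floor was a log2 value of 6. RMA makes array distributions alike, so a shift of most genes would not show. Members and lists were chosen with earlier results of these data known. Named genes are all members and listed genes, except a few not reported here, and pattern neighbours by distance. The difference and count steps were tested on simulated data, and the other steps were not. Tools were Python 3.11.15, pandas 2.3.3, numpy 2.4.6, R 4.3.3 and limma 3.58.1. Alternatives were other floors, a 3-fold threshold, the mean of probe sets, 3 other scalings and 16 added before log2.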

Additional observations from a re-analysis of the deposited data

Results flagged for a closer look

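For 4 members the hypoxia difference pointed one way in media and the other way with poly I:C, on 1 array per condition, and the difference between them was not tested. Opposite signs were also found in 30.4% of genes above the floor. Oas1a was at -1.14 in media and 0.48 with poly I:C, a difference of differences of 1.62. Oas3 was at -1.23 and 0.21 (1.44), Oas1b at -0.35 and 0.78 (1.12), and Oas1g at -0.80 and 0.24 (1.04). The poly I:C values of Oas3 and Oas1g lie within 0.32 of 0, the spread used for single differences. The media values of Oas1b, 4.45 and 3.50, are near the array median.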

How the results depend on the processing

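No paired analysis was possible because each condition has 1 array. Under the 9 alternatives no difference of a member that was 2-fold or more changed sign. The floors, the 3-fold threshold and the mean of probe sets cannot change a single value, as each member has 1 probe set. Only the 3 other scalings and the added 16 tested these values. Of 432 single values of members, the unchangeable ones included, 39 moved by 0.32 or more. Of these, 31 moved with 16 added to the intensities and 8 after centring on reference genes. The 0.32 is the robust SD of the difference of differences, 0.45, over the square root of 2. Adding 16 gave medians over the members above the floor of 2.15 for poly I:C in normoxia (as deposited 2.65), 3.05 in hypoxia (4.09), -0.56 for hypoxia in media (-1.14), 2.31 for the combination (3.03) and 0.79 for the difference of differences (1.44). It also left 1 member 2-fold lower in hypoxic media and 1 at 2-fold in the difference of differences, since adding a constant shrinks differences of dim genes. A 3-fold threshold left 1 and 2. Centring on 8 reference genes gave a median of 3.04 for poly I:C in normoxia, moved the median of all genes there from -0.03 to 0.35, left 3 of 4 members 2-fold lower in hypoxic media and 4 of 6 at 2-fold in the difference of differences, and turned Oas1c's difference of differences from 0.13 to -0.15. Dim media values limit every ratio that uses them.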
